A study of Arabidopsis thaliana with 47 samples.

Results

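Cycloheximide (CHX), an inhibitor of translation, was compared with no CHX in root cells of Arabidopsis thaliana that received neither the nitrogen signal nor dexamethasone (DEX). The comparison rested on 9 of the 47 arrays of the series, chosen by their titles: 6 with CHX, from 2 preparations called Biorep 1 and Biorep 2 with 3 treatment replicates each, and 3 without CHX. All 9 came from protoplasts of Col-0 roots of 10-day-old seedlings, released by a 4 h digestion, transfected for 25 min, left overnight and sorted for a red fluorescent marker. Both groups were transfected with GR::bZIP1, in which the bZIP1 factor is joined to part of the glucocorticoid receptor, expressed transiently from the constitutive 35S promoter. In place of nitrogen (20 mM KNO3 with 20 mM NH4NO3, given for 2 h) the cells received 20 mM KCl. In place of 10 µM DEX, which lets the fusion enter the nucleus, they received solvent. The CHX dose is not given in the sources used here. A group of 3 arrays of cells with the empty vector, also with CHX and without nitrogen or DEX, is set beside these as values only. Other arrays of bZIP1 cells numbered 27.

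CHX stalls elongating ribosomes, so that proteins with a short life are lost and no new regulators are made. In plants it is known as an inducer of early-response transcripts: messages of auxin and stress genes can accumulate when an unstable repressor, or a protein that speeds their decay, is no longer made. The TARGET assay, from which these cells come, uses CHX so that only direct targets of a nuclear factor respond.

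The labels name preparations for the bZIP1 arrays with CHX alone, so that CHX and preparation cannot be told apart in the comparison below. The deposited log2 values had a different lowest value in each arm (2.298 with CHX, 2.303 without and 2.287 for the empty vector), and all 47 arrays were therefore quantile-normalized together. On the resulting scale the floor was 2.30, and levels below are normalized log2 signals. Between 28.9% and 31.7% of the deposited values of an array lay at its lowest value. Pearson's r over all probe sets was 0.991 to 0.997 for arrays of the same preparation or group, 0.979 to 0.985 between the Bioreps, and 0.845 to 0.881 between arrays with and without CHX. The first principal component of the 9 arrays held 87.7% of the variance and separated arrays with CHX from those without. The second held 6.48% and separated the Bioreps, which also lay apart on the first. Among the arrays with CHX, Biorep accounted for 79.3% of the spread on the first component and 98.2% on the second. Of 29 markers of root cell types and of leaf mesophyll, 2 were named on the array. EXPA7, a root hair expansin, averaged 2.30 without and 2.32 with CHX, and RCA, the activase of leaf Rubisco, 2.97 and 2.64, so the labelled tissue could not be checked further. In sorted cells pooled for RNA, fewer cells of a type and less RNA per cell cannot be told apart.

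With CHX, 9977 of 22746 probe sets (43.9%) differed from the arrays without it at an adjusted p under 0.05 (limma, preparation as a random block, Benjamini-Hochberg over all probe sets). Of these, 3965 were higher (17.4% of those tested) and 6012 lower (26.4%). That balance depended on the scale: higher calls made up 39.7% of calls here, 26.6% on the deposited values and 74.3% when these were centred on each array's median. A stricter set is used below, called differences of at least 2 on the log2 scale (4-fold). Such a difference by itself puts the higher group at least 2 above the floor, so level was not filtered further. The stricter set held 1349 higher probe sets (5.93%) and 967 lower ones (4.25%). In all 2316 the 6 arrays with CHX lay outside the range of the 3 without, which the size of the difference nearly fixes; the same held for 11496 of all probe sets (50.5%). Of the 2316, 1919 differed by at least 2 in each Biorep taken alone, a count added after the data were seen. When the arrays of each Biorep were averaged, and those without CHX were averaged as if from 1 preparation, which no label states, these counts were 133 and 155.

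The rises reached further than the falls. Differences of at least 4 (16-fold) were seen in 415 probe sets that rose and 30 that fell, and of at least 6 (64-fold) in 118 that rose and 0 that fell. The median large rise was 3.14 and the median large fall -2.49. The median level without CHX was 3.81 for the rises and 7.22 for the falls; the rule itself keeps falls from starting near the floor, so these are a description. In 558 of the large rises and 294 of the large falls the lower group lay within 1 of the floor, where a difference is a lower bound.

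**Figure D1:**
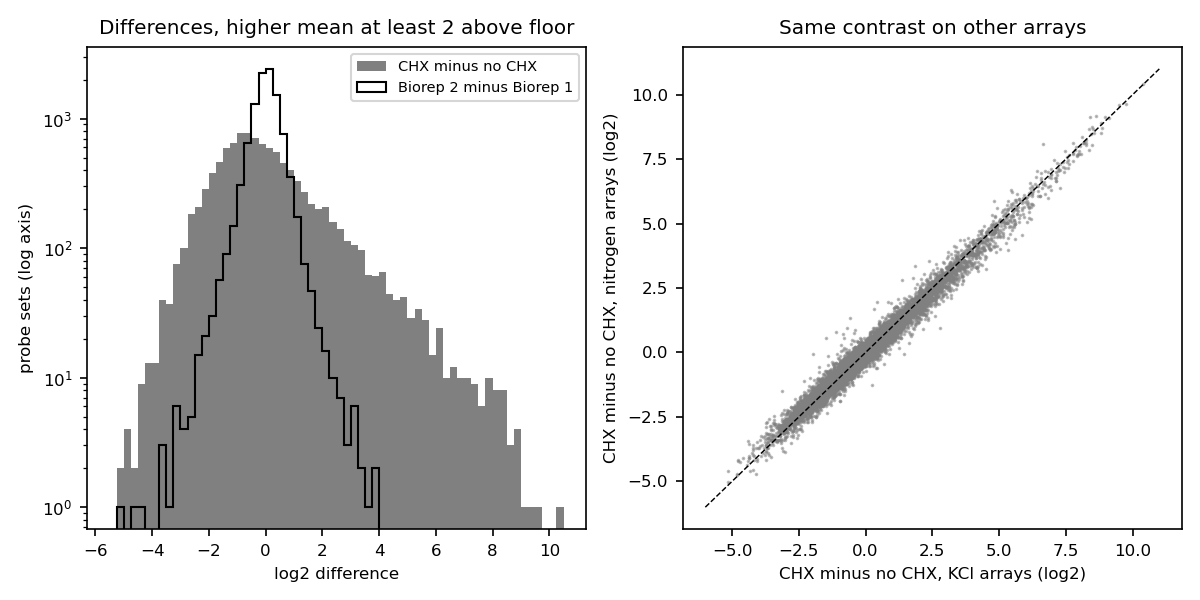
Left, numbers of probe sets (log axis) by log2 difference, for CHX minus no CHX (grey) and for Biorep 2 minus Biorep 1 within CHX (black outline), over probe sets whose higher group mean was at least 2 above the floor. Right, the CHX difference of the same probe sets in the KCl arrays against that in the nitrogen arrays, without DEX, with the line of equality. The grey distribution extends to 10.4 on the right and -5.15 on the left.

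The Bioreps, both with CHX, were also compared with each other. The difference passed the threshold at 666 probe sets (2.93%, limma, 3 arrays against 3), of which 33 were large by the same rule and higher in Biorep 2, and 50 large and lower. This count rested on all 3 replicates and was between 3 and 23 with 1 replicate left out of each. Among the 2316 probe sets chosen for a large CHX difference, the median absolute difference between the Bioreps was 0.366, and it was at least 1 in 323.

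Genes are ranked below only among probe sets matched to 1 locus, which hold 724 of the 1349 large rises and 485 of the 967 large falls; the largest rise of all, 10.4, belongs to an unnamed probe set. The largest measured rise with a name belonged to MSRB9, a methionine sulfoxide reductase that repairs oxidized methionine in proteins. Its levels without CHX were 3.16, 4.21 and 3.99, and those with CHX ran from 11.99 through a median of 12.16 to 12.48. The groups were far apart, and the difference was 8.41 ± 0.28 (SE, adjusted p = 2.62e-07, limma). Next came EXLA3, an expansin-like protein, with 3.45, 3.65 and 3.45 without CHX and 10.68 to 11.73, median 11.36, with it (difference 7.77 ± 0.28). XTH18, which cuts and rejoins xyloglucan chains of the cell wall, had levels of 5.77, 6.09 and 5.21 without CHX and 12.65 to 12.89, median 12.77, with it (7.07 ± 0.21). The low arrays of each gene were those without CHX, and no array with CHX came near them. The other 9 of the 12 largest measured rises of matched probe sets have a locus identifier and no symbol in the tables used. They were AT3G23170 (7.40), AT2G28400 (7.25), AT1G58420 (6.93), AT5G17350 (6.93), AT4G20000 (6.73), AT1G17620 (6.66), AT5G64870 (6.56), AT5G28630 (6.54) and AT1G70420 (6.47).

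Among matched probe sets, larger differences were seen from levels near the floor, where they are lower bounds. AT5G19240 was at 2.38, 2.44 and 2.41 without CHX and between 11.99 and 12.31 with it, a difference of at least 9.75 ± 0.07 (at least 861-fold, adjusted p = 6.52e-11, limma). AT1G14550 (9.11), AT5G52750 (8.96), AT5G52760 (8.82) and AT2G23270 (8.82) followed. The last 4 were at 2.31 to 3.53 on every array without CHX.

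**Figure D2:**
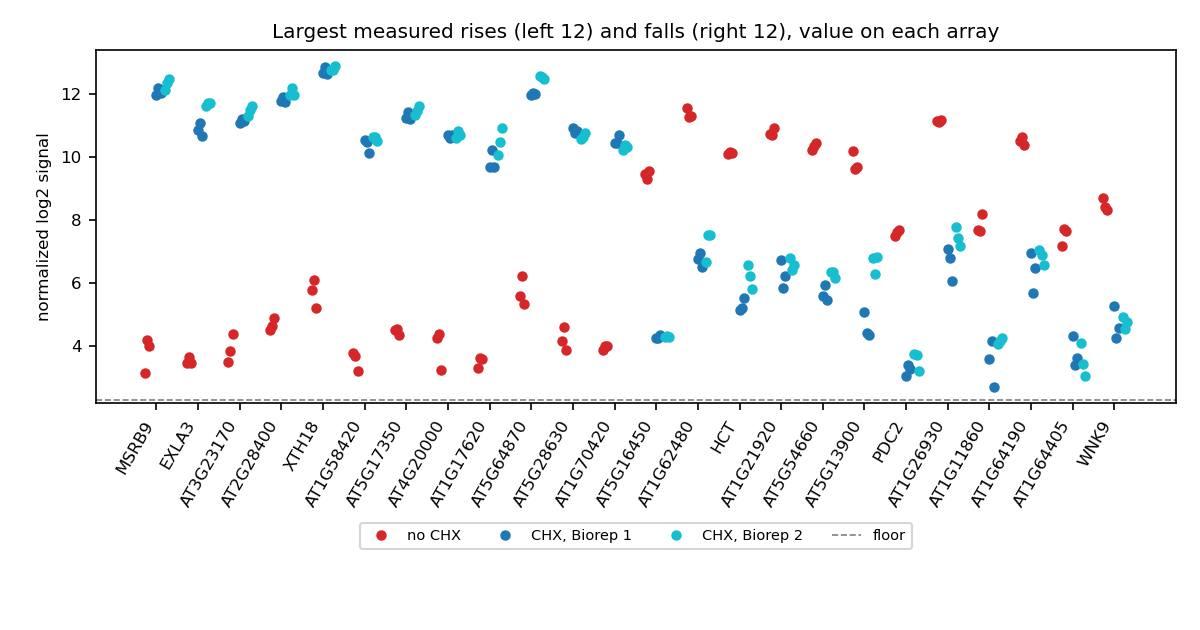
Normalized log2 signal (y axis) of the 12 largest measured rises and 12 largest measured falls (x axis), with 1 point per array: 3 without CHX (red), 3 of Biorep 1 (dark blue) and 3 of Biorep 2 (light blue), and the floor as a dashed line. In each gene the 6 arrays with CHX lie on 1 side of the 3 without. AT5G13900 shows the widest spread with CHX, from 4.35 to 6.83.

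The largest measured fall of a matched probe set was that of AT5G16450, from 9.47, 9.30 and 9.57 to between 4.25 and 4.35 (-5.15 ± 0.07, adjusted p = 1.94e-09, limma). HCT, a transferase of lignin synthesis, stood at 10.09, 10.17 and 10.13 without CHX and at 5.15 to 6.56, median 5.67, with it (-4.38 ± 0.35, adjusted p = 3.1e-05, limma). PDC2, a pyruvate decarboxylase of ethanolic fermentation, went from 7.51, 7.62 and 7.68 to 3.06 to 3.75 (-4.21 ± 0.19). In both genes the arrays without CHX lay close together and well above the rest. WNK9, a kinase of the with-no-lysine family, fell by 3.77 on the log2 scale. The remaining falls were of AT1G62480 (-4.39), AT1G21920 (-4.37), AT5G54660 (-4.37), AT5G13900 (-4.22), AT1G26930 (-4.10), AT1G11860 (-4.02), AT1G64190 (-3.92) and AT1G64405 (-3.87). AT5G13900 was the least even: it differed from Biorep 1 by -5.23 and from Biorep 2 by -3.21. Falls that ended near the floor were AT2G32430 (-4.83), AT5G24760 (-4.36), UGT88A1 (-4.20), AT5G58520 (-4.10) and AT5G52450 (-3.94), all lower bounds in size.

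Auxin-response genes come first among the gene lists, since they are known to respond to CHX. Of 7 Aux/IAA repressors named on the array, 3 were higher, 0 lower and 4 not past the threshold, with a median difference of 0.11 against 0.00 over all probe sets. These counts and those of the GH3 list below are set beside 17.4% of all probe sets higher and 26.4% lower. Among probe sets with a mean of at least 4, 29.3% were higher and 37.2% lower. IAA30 was at 2.62, 2.64 and 2.63 without CHX and at 7.29 to 8.45, median 7.87, with it, a rise of at least 5.30 ± 0.29. The other Aux/IAA genes that passed were IAA34 (at least 1.73) and IAA20, whose 0.03 lay at the floor. Of 5 members of the GH3 list, which attach amino acids to auxin and so inactivate it, 2 were higher and 1 lower. GH3.3 stood at 5.22, 5.47 and 6.02 without CHX and at 11.53 to 11.77, median 11.63, with it (6.06 ± 0.20). GH3.1 was at 2.30 on all 3 arrays without CHX and at 7.04 to 7.67 with it, a rise of at least 4.96 in Biorep 1 and 5.04 in Biorep 2. GH3.17 ran the other way, with -0.90, a call that was lost on the deposited values (adjusted p = 0.194, limma).

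Transcription factors of the stress response were tested next. Among 7 WRKY factors, DNA-binding regulators of defence and senescence, 4 rose by at least 2 and 1 fell, with a median of 2.29. Over all probe sets, 5.93% rose by at least 2 and 26.4% were lower. Of the 9657 probe sets with a mean of at least 4, 29.3% were higher and 37.2% lower. When only these were tested, 1282 rose by at least 2. WRKY22 had 6.33, 7.06 and 6.40 without CHX and 10.73 to 11.10, median 10.94, with it (4.32 ± 0.20). WRKY53 rose by 3.87, WRKY47 by 2.59 and WRKY6 by 2.29, the last from levels that were already near 10. STZ, a C2H2 zinc finger repressor of the abiotic stress response, had 7.44, 7.65 and 7.48 without CHX and 12.52 to 12.85 with it (5.17 ± 0.09), and was the only named member of its list. PIA1, the only protein phosphatase 2C named, went the other way, from 11.30, 11.23 and 11.06 to between 8.78 and 9.42 (-1.91 in Biorep 1 and -2.09 in Biorep 2).

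Of 8 calmodulin-like proteins, calcium sensors, 5 were higher and 1 lower, with a median of 1.99. CML37 had 7.82, 8.06 and 8.03 without CHX and 12.64 to 12.78 with it (4.74 ± 0.07), and its 6 arrays with CHX spanned less than its 3 without. CML23 rose by 5.17 and CML38 by 4.34. Of 9 plant U-box ligases, which mark proteins for degradation, 5 were higher, 0 lower and 4 not past the threshold, with a median of 0.78. PUB22 and PUB23, closely related ligases that dampen immune signalling, rose by 2.35 and 3.05, PUB24 by 1.58 and PUB19 by 5.05. These shares are set beside 17.4% of all probe sets that were higher, and 29.3% of those with a mean of at least 4.

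**Figure D3:**
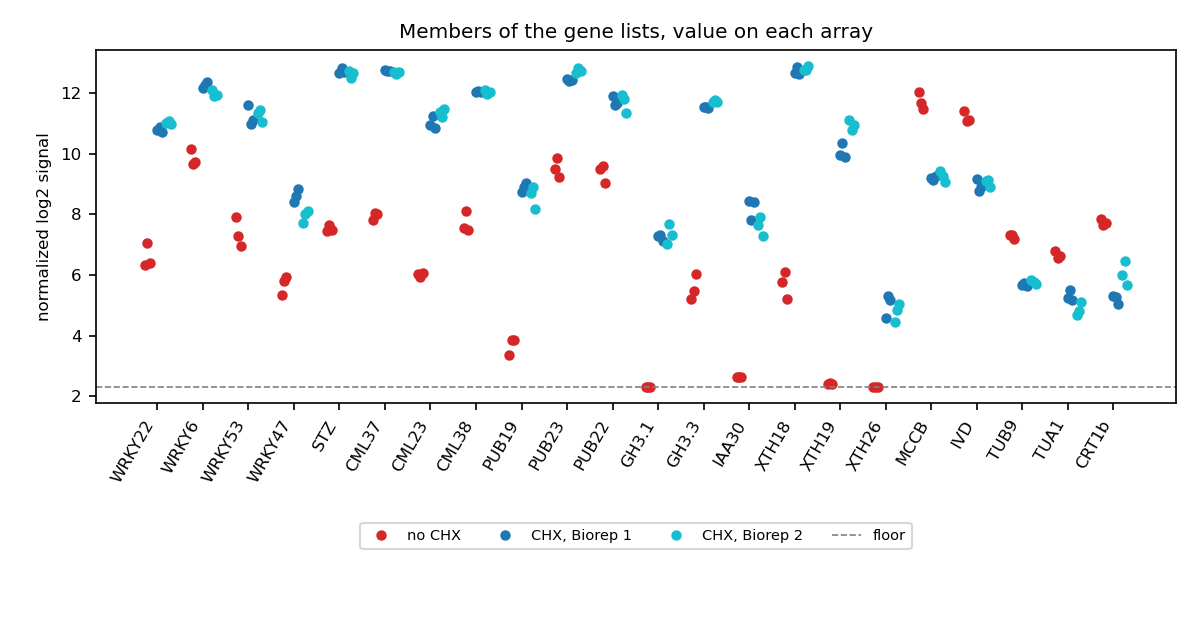
Normalized log2 signal (y axis) on each array for members of the gene lists (x axis), coloured as before, with the floor dashed. The WRKY, CML, PUB, GH3, IAA and XTH genes shown are higher on the 6 arrays with CHX, and MCCB, IVD, TUB9, TUA1 and CRT1b are lower. The genes were picked from the lists. Members of these families that were called lower, GH3.17, EXGT-A3, CML43 and a WRKY factor, are not shown.

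Cell wall families held members of both directions, to be read against 17.4% of all probe sets higher and 26.4% lower. Of 10 xyloglucan transglycosylases, 3 were higher, 1 was lower and 6 had both means within 1 of the floor. Beside XTH18, XTH19 rose by at least 8.11 and XTH26 by at least 2.59, while EXGT-A3, a member measured at 9.09 to 9.32 without CHX, fell by 1.02, a call lost on centred deposited values (-0.44, adjusted p = 0.13, limma). Among 19 expansins, which loosen the wall, 4 were higher and 4 lower, and 12 lay near the floor in both groups. EXLA1 was higher by 1.48, and EXPA20, which ended near the floor, was lower by at least 1.05. CSLC04, of a family that builds the xyloglucan backbone, rose by 4.18 while CSLC6 fell by 1.13, and ATPMEPCRB, a pectin methylesterase, was higher by at least 3.75. That last gene differed between the Bioreps, by 2.93 in Biorep 1 and 4.58 in Biorep 2 against the arrays without CHX (adjusted p of the difference = 0.039, limma).

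Counts for families of enzymes that modify foreign and defence compounds are set beside 17.4% of all probe sets higher and 26.4% lower. Of 51 UDP-glycosyltransferases, 12 were higher and 10 lower, with a median of 0.00, and 26 had both means within 1 of the floor. Of 29 entries matched by the cytochrome P450 patterns, 5 were higher and 3 lower, and 21 lay near the floor in both groups. CYP71B21 was at 2.30 on each array without CHX and at 6.16 to 7.18 with it. SQN, a cyclophilin that the pattern also caught, fell to near the floor, by at least 1.39. Among 13 glutathione transferases, 3 were higher and 2 lower, and 6 lay near the floor in both groups. GSTU26 rose by 2.73 and GSTU22 by 2.25, and GSTU27 fell by 2.41 and GSTU16 by 1.99.

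Amino acid breakdown genes, which bZIP1 is known to regulate in starved cells, had 4 of 7 members lower, 2 higher and 1 not past the threshold. Of the 9657 probe sets with a mean of at least 4, 37.2% were lower and 29.3% higher. The median was -0.62 for the list and -0.21 for those probe sets. MCCB, a subunit of the carboxylase that degrades leucine, had 12.04, 11.68 and 11.48 without CHX and 9.08 to 9.44 with it (-2.50 ± 0.16). IVD, the isovaleryl-CoA dehydrogenase of the same pathway, had 11.41, 11.09 and 11.12 against 8.78 to 9.18 (-2.21 ± 0.14). AT5G38710, placed on this list by its locus, rose by 3.36. Of 12 genes of nitrate transport and assimilation, 8 had both means within 1 of the floor. Only 1 passed the threshold, beside 43.9% of all probe sets: AT1G59740, which was higher by 2.03.

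The protein synthesis, proteasome and folding lists had 1 named member each, or 2 for endoplasmic reticulum folding, too few to read as groups. All of those called were lower, beside 26.4% lower among all probe sets and 37.2% among those with a mean of at least 4. The named cytosolic ribosomal protein (0.07) and heat shock protein (0.02) were not called, and had both means within 1 of the floor. EIF4A-2, an RNA helicase of translation initiation, fell by 1.77 and ALATS, an alanyl-tRNA synthetase, by 1.75. RPN12a, a proteasome subunit, fell by 1.27, a call lost on centred deposited values (-0.50, adjusted p = 0.0676, limma), and PDIL5-1, a protein disulfide isomerase-like protein, fell by 1.25. CRT1b, a calreticulin of the endoplasmic reticulum, fell by 2.12. Of 9 tubulins and actins, 4 fell and 0 rose, beside 26.4% lower among all probe sets and 37.2% among those with a mean of at least 4. TUB9 went from 7.33, 7.33 and 7.19 to between 5.65 and 5.83. TUA6 was called at an adjusted p of 0.0277 (limma), and that call was lost without no-CHX replicate 1 or 3 or Biorep 1 replicate 3 (adjusted p = 0.0683, 0.0788 and 0.0633, limma). Of 6 histone genes, 2 were higher and 2 lower, beside 17.4% and 26.4% of all probe sets. HTB2 rose by 2.24 and HTB1 by 1.85. HIS1-3, a drought-inducible linker histone, fell by 1.24. HTB4 fell by 1.23, a call lost on deposited values (-0.36, adjusted p = 0.0992, limma) and on centred ones (-0.16, adjusted p = 0.522, limma).

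Genes with conserved upstream reading frames, short frames ahead of the main one that control its translation, were also split. BZIP53, a dimer partner of bZIP1, was higher by 0.62 and bZIP44, another partner, by at least 2.47. AT5G15950 was higher by 3.21 while SAMDC, an S-adenosylmethionine decarboxylase, was lower, with -1.05. The direction of SAMDC turned to 0.18 on centred deposited values (adjusted p = 0.406, limma). UPF3, a factor of nonsense-mediated decay, was higher by 1.14. No level of bZIP1 is given here.

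Further groups and genes were chosen after their values were seen, and the counts of these groups are set beside 17.4% higher and 26.4% lower over all probe sets. Of 15 tetraspanins, membrane proteins with 4 transmembrane spans, 4 were higher and 2 lower, and 10 lay near the floor in both groups. TET9 rose from 2.30 on average to 9.91 to 10.27, and TET6 fell by 3.02. Of 16 SWEET sugar transporters 2 were higher, SWEET16 by at least 4.35, and 11 lay near the floor in both groups. Of 22 beta-glucosidases 5 were higher and 4 lower, among them PYK10, the enzyme of root endoplasmic reticulum bodies, which had 11.11, 11.32 and 11.63 without CHX and 8.24 to 9.62 with it. Of 43 plastid-encoded photosynthesis genes 12 were lower and 4 higher, with a median of -0.12, and 5 lay near the floor in both groups. Among probe sets with a mean of at least 4, 37.2% were lower and the median was -0.21, so the list did not stand out as lower. One member, rbcL, the large Rubisco subunit, was lower by 1.53 on the log2 scale (-1.53 ± 0.16). ORA47, an ERF factor that activates jasmonate synthesis, had 2.35, 2.36 and 2.36 without CHX and 8.19 to 10.75 with it, and OPCL1, an enzyme of that synthesis, rose by 5.33. The rise of ORA47 against the arrays without CHX differed between the Bioreps, at least 6.21 in Biorep 1 and at least 8.33 in Biorep 2. GRX480, a glutaredoxin that interacts with TGA factors, had 9.06, 9.53 and 9.53 without CHX and 13.66 to 13.83, median 13.73, with it (4.36 ± 0.13). Its levels with CHX lie near the top of the scale, whose highest deposited value in that arm was 13.99, so their small spread is not read. EXO, a cell wall protein linked to brassinosteroid-promoted growth, rose by at least 7.29, and CCR2, a cinnamoyl-CoA reductase, by 2.69. cICDH, the cytosolic isocitrate dehydrogenase, fell by 2.56, from 11.82, 11.63 and 11.76 to between 8.27 and 9.74. OPS, a protein of phloem development, PHV, a homeodomain factor of vascular and leaf patterning, and LHW, a bHLH factor of vascular patterning, were lower, with -2.97, -3.23 and -2.83. The first pair ended near the floor, so that their values are lower bounds in size.

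**Figure D4:**
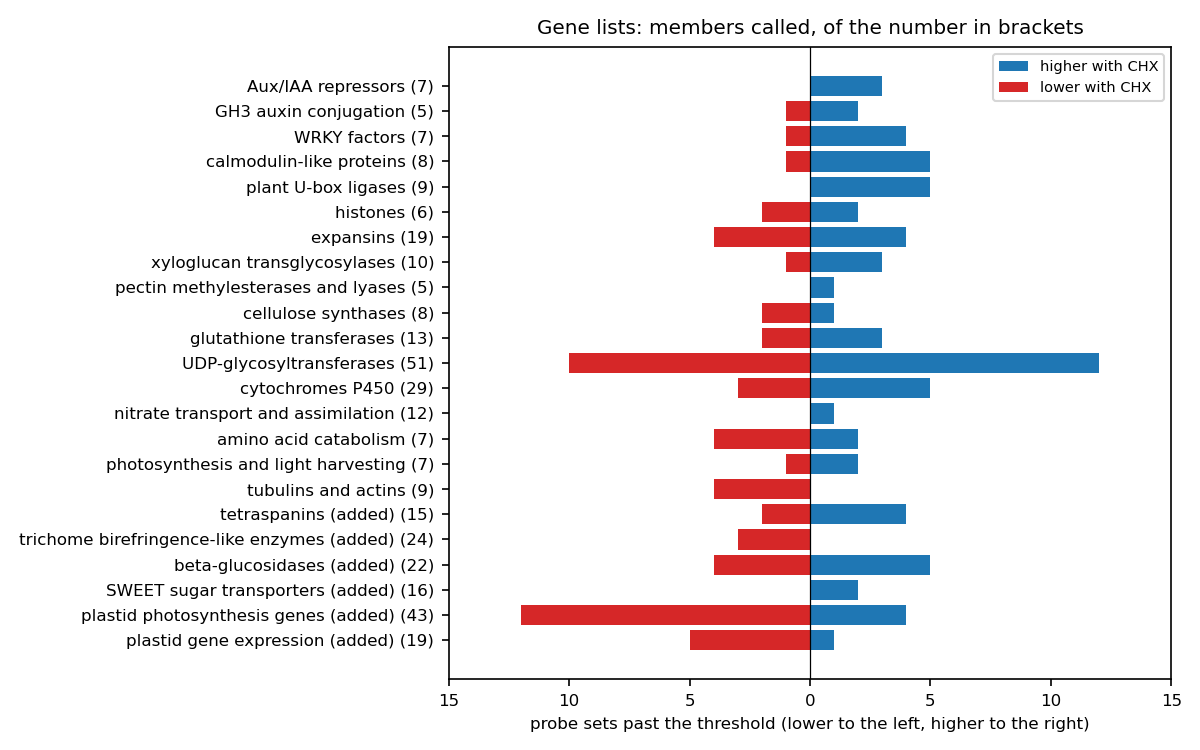
Numbers of probe sets past the threshold (x axis), higher with CHX to the right (blue) and lower to the left (red), for each gene list with at least 5 named members (y axis), with the number named in brackets. Lists marked "added" were chosen after values were seen. U-box ligases, Aux/IAA repressors, pectin methylesterases and lyases, nitrate genes and SWEET transporters have no bar to the left. Tubulins and actins and the trichome birefringence-like enzymes have none to the right. Over all probe sets 17.4% were higher and 26.4% lower. Both means lay within 1 of the floor, where a fall can hardly be seen, in many members. These were 3 of 9 U-box ligases, 3 of 7 Aux/IAA repressors, 4 of 5 pectin enzymes, 8 of 12 nitrate genes and 11 of 16 SWEET transporters. They were also 5 of 9 tubulins and actins and 20 of 24 trichome birefringence-like enzymes.

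The same contrast was made on arrays that the main comparison does not use, of the same Bioreps with CHX and of no labelled preparation without it. It passed the threshold at 9882 probe sets (43.4%) with nitrogen, 10179 (44.8%) with DEX and 9650 (42.4%) with both (limma). Of the 1349 large rises, 1344, 1341 and 1332 were also called higher in these 3 conditions, and of the 967 large falls 962, 951 and 938 were called lower. In none of the 3 was a large difference called in the opposite direction (0 in each). Differences of at least 2 were seen in all 4 conditions for 1062 of the rises and 580 of the falls. MSRB9 differed by 9.15, 8.85 and 8.80 and AT5G16450 by -5.01, -4.96 and -4.79.

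Whether the CHX difference depended on nitrogen or DEX was tested with an interaction term. It depended on nitrogen at 16 probe sets (0.0703%) and on DEX at 187 (0.822%, limma). Only probe sets matched to 1 locus were ranked. Among the 6 of these with the lowest adjusted p for DEX, the largest change was that of GH3.3, whose CHX difference of 6.06 without DEX was 2.96 with it (interaction -3.10 ± 0.22, adjusted p = 1.96e-06, limma). PYRB, an enzyme of pyrimidine synthesis, had a lower adjusted p (1.05e-07, limma) and went the other way, from 1.45 to 2.91. CHLM, a methyltransferase of chlorophyll synthesis, went from -0.68 to -0.07 (adjusted p = 7.55e-08, limma). Its CHX difference also depended on nitrogen, and was -0.17 with nitrogen and no DEX (interaction 0.51 ± 0.04, adjusted p = 5.29e-05, limma). Both tests share the arrays with neither nitrogen nor DEX. HCT was lower with CHX both without DEX (-4.38) and with it (-2.80).

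The empty-vector cells with CHX share no array with either Biorep, and their values are given beside the same 3 arrays without CHX. MSRB9 was at 12.20 to 12.29 in them, EXLA3 at 11.23 to 11.28, GH3.3 at 11.94 to 12.06 and STZ at 13.25 to 13.49. Among the genes that were lower, HCT was at 5.40 to 5.53, MCCB at 8.72 to 9.16 and AT5G16450 at 2.30 to 2.47, below its 4.25 to 4.35 in bZIP1 cells with CHX. BGLU32 stood at 6.99 to 7.35 in the empty vector and at a median of 4.46 in bZIP1 cells with CHX, against 2.30 without CHX. Vector and CHX both differ in these comparisons, and no test was made.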

How the data were processed

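Transcripts were measured on Affymetrix ATH1 arrays. The deposited values are log2 signals, and per the submitters' processing notes GCRMA was used, with no version. Separate processing of the arms is read from their lowest values. Of 22810 probe sets, 64 controls were left out and 22746 tested. All 47 arrays were quantile-normalized together. The 9 arrays were fitted with limma 3.58.1 (lmFit, eBayes, two-sided) in R 4.3.3, with preparation as a random block (duplicateCorrelation, 0.153). The arrays without CHX were taken as 1 block, which no label states, so errors describe arrays. On simulated data with a preparation effect this fit called more unchanged probe sets than the threshold allows, so the adjusted p-values are too small where preparations differ. The tables matched 13436 probe sets to 1 locus, and the other 9310 are unnamed. Named genes had adjusted p under 0.05, the same sign against both Bioreps and no overlap: the 12 largest rises and falls at least 1 above the floor, 5 and 5 nearer to it, and up to 4 members per list. Of 42 symbol and locus lists, 34 had a named member. A further 6 lists and 11 genes were added after values were seen. The members, lists and contrasts were chosen with earlier results of these data known. Treatment replicate numbers were not used to pair arrays in the main fit. Correlations exceeded 0.1 in 3 of 6 pairs, a split that does not settle whether these numbers pair arrays. Array number and level above the floor limit the precision.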

Additional observations from a re-analysis of the deposited data

Results flagged for a closer look

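Among 137 named genes, 12 had 1 array with CHX far from the other 5 by Dixon's ratio of gap to range, where chance gives about 1 in 20. They were AT1G58420 (0.673), AT5G58520 (0.957), AT5G52450 (0.756), BZIP53 (0.65), HTB2 (0.707), EXLA2 (0.659), GSTU16 (0.736), LHCB4.3 (0.909), BGLU40 (0.889), BGLU32 (0.675), PHV (0.64) and FMO (0.888). In AT5G58520, HTB2, BGLU40, BGLU32 and FMO that array was Biorep 1 replicate 1. Several of these levels lay near the floor, as in AT5G58520, where the array stood at 3.48 and the lowest at 2.46.

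The CHX difference depended on DEX, by the interaction test, in 7 of these genes. The difference with DEX minus that without was -3.10 for GH3.3, 1.58 for HCT, 1.51 for AT5G24760, 1.01 for AT5G52450, 0.90 for TBL39, -0.74 for EXLA1 and -0.44 for AT5G19240. It depended on nitrogen in CML43, by 0.31, at levels close to the floor.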

How the results depend on the processing

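Counts over all probe sets moved most with scale and with the unit of replication. On the deposited values 14996 probe sets were called, 11000 of them lower. On those values centred on each array's median 15154 were called, 11255 higher and 3899 lower. With a mean of at least 4 required, 6170 were called and 3439 lower, since fewer probe sets were tested. With preparations averaged, 1135 were called, 263 higher and 872 lower, with 133 and 155 large; this leaves 3 values a gene, and 112 of the 137 named genes lost their call. The large counts stayed within 1.5 times the main ones in the other settings run. Leaving out 1 array gave 9248 to 10219 calls, 3618 to 4088 higher, 5630 to 6131 lower, 1318 to 1372 large rises and 938 to 1004 large falls. Biorep calls numbered 3 to 23 with a replicate left out. The median difference of expressed probe sets was -0.21, against -0.15 on deposited and 0.05 on centred values. The direction turned on deposited values for rpl20 (0.30), and on centred values for rpl20 (0.50), SAMDC (0.18) and CSLC12 (0.16). Calls of named genes lost on deposited values were those of GH3.17, SAMDC, HTB4 and rpoA, and on centred ones those of GH3.17, RPN12a, HTB4, EXGT-A3, ALDH6B2, TUA6, rpoA and rpoC1. The cause was not tested. With 1 array left out, the calls lost were those of TUA6, rpl20 and rpoC1, with adjusted p of 0.0538 to 0.079 (limma).

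With treatment replicate number as a replicate block, 9353 were called, and 2 of the 137 named genes lost their call, rpl20 and rpoC1. Correlations of arrays with the same number ran from -0.05 to 0.21, above 0.1 in 3 of 6 pairs, so pairing stays undecided.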
